A study of Homo sapiens with 18 samples.

Results

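The FKBP5 locus held 55 of the 20642 GR binding regions (GBR) listed for 6 siRNA combinations, and these reduced to 13 separate sites of 9736 in the genome. Members were all peaks whose summit, the position of highest enrichment, lay in the FKBP5 gene body or within 100 kb of it, and peaks of different lists were treated as the same site when they overlapped by at least 1 bp. Of the 13 sites, 6 were called in every list, 2 were called in some of the lists, and 5 were called in the list of Hic-5 depletion (siHic5/siNS) alone.

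ChIP-seq for GR was performed in U2OS-GRα, a human osteosarcoma cell line that was stably transfected with GRα, so all groups share an introduced receptor. Cells received siRNA for 48 h and then 100 nM dexamethasone (dex), a synthetic glucocorticoid, for 1 h. The combinations were siNS/siNS (nonspecific siRNA only), siHic5/siNS, siCHD9/siNS, siCHD9/siHic5, siBRM/siNS and siBRM/siHic5. Hic-5 is a GR coregulator of the paxillin family, CHD9 is a chromodomain chromatin remodeler, and BRM is the ATPase of a SWI/SNF remodeling complex. Each combination had 2 ChIP libraries and 1 input library, and the authors called peaks on the pooled replicates. There is therefore 1 list per combination and no spread between replicates, so differences between lists are described and were not tested. No list of cells without dex was analysed here, and the lists hold no transcript levels with which the depletion of Hic-5, CHD9 or BRM could be checked. The lists give no read totals, and they held 2582, 9533, 1415, 2451, 1278 and 3383 GBR in the order above, with a lowest −log10 q-value of 7.26 to 14.2.

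FKBP5 encodes FKBP51, a co-chaperone that joins the HSP90 complex of unliganded GR and lowers the affinity of the receptor for hormone. GR activates FKBP5 strongly in most cell types, through enhancers in its introns and upstream of the gene, and the protein made in turn restrains GR. This short feedback loop makes FKBP5 a standard marker of GR activity. GR binds DNA as a dimer at the glucocorticoid response element (GRE), which consists of a pair of inverted half-sites.

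In GENCODE, FKBP5 (ENSG00000096060.15) occupied chr6:35573585-35728583 of GRCh38 on the minus strand, a length of 155.0 kb. The start site used by its longest transcript (ENST00000536438.5, 12 exons) was at position 35728583, and that of the canonical transcript (ENST00000357266.9, 11 exons) was at 35688915, 39.7 kb downstream. Sites were numbered from 1 to 13 in the direction of transcription, and distances refer to the upstream start site unless stated otherwise. Sites 1 and 2 lay far upstream, in introns of LHFPL5 and CLPSL2, 82.9 and 50.1 kb from the start. Sites 3 to 8 formed a group between 3.46 kb upstream and 13.0 kb downstream of the upstream start. Sites 9 and 10 lay in the 3′ part of the gene, in introns 5 and 7 of the canonical transcript (6 and 8 of the longest transcript), 127 and 138 kb downstream. Sites 11 to 13 lay beyond the gene, in introns of TEAD3, a TEA-domain transcription factor of the Hippo pathway. Between sites 8 and 9 no list held a summit over 113 kb, and the canonical start site was 26.7 kb from the nearest summit, that of site 8.

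**Figure D1:**
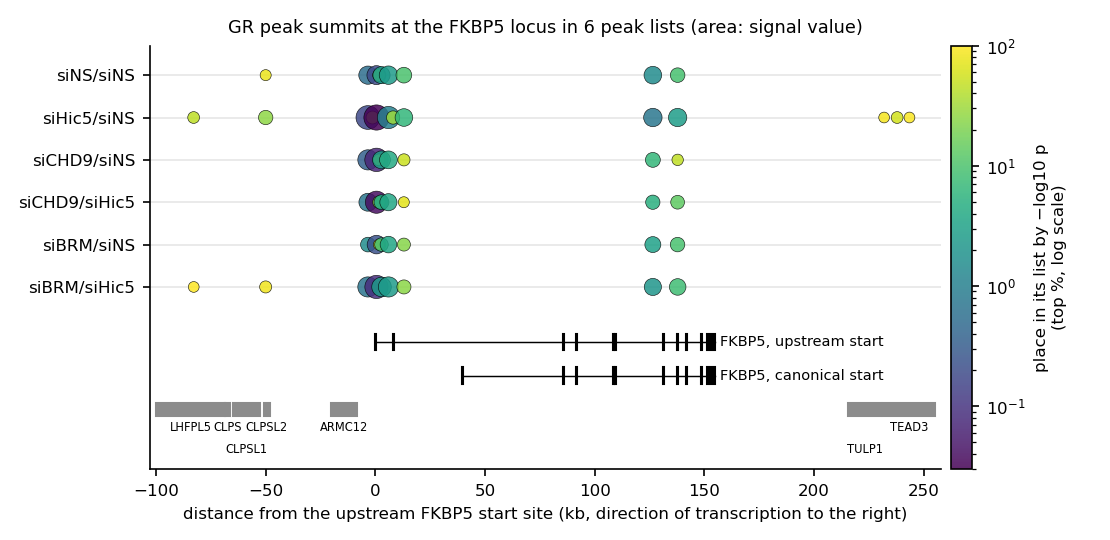
Each circle is the summit of a GBR, placed by its distance in kb from the upstream FKBP5 start site, with 1 row per peak list, an area that grows with the signal value and a colour for the place of the GBR in its list (top percent by −log10 p-value, log scale). Exons of both FKBP5 transcripts and the neighboring protein-coding genes are drawn beneath, and the strongest GBR sit at the upstream start in every list, with 113 kb of the gene body empty.

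The sequences under the summits are shown because they carry the motif matches on which the sites differ. Each covers 60 bases on either side of a summit, on the plus strand of GRCh38, from the siHic5/siNS list. GRE matches were searched on both strands as the half-sites GNACA and TGTNC separated by 3 bases, with at most 1 mismatch at the 8 defined positions, and are printed in capitals. The first set holds the 3 sites with a match at all 8 positions.
Site 3, chr6:35731979-35732099: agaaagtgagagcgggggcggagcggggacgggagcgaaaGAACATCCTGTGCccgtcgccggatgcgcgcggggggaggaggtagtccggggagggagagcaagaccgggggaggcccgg
Site 5, first element, chr6:35728048-35728168: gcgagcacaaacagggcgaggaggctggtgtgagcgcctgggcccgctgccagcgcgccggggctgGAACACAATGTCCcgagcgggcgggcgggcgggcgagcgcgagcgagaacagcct
Site 9, chr6:35602016-35602136: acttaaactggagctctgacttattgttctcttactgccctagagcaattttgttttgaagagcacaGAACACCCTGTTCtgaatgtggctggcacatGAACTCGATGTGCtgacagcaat

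The perfect GRE of sites 3, 5 and 9 were centered 14, 12 and 13 bp from the summit. Site 9 held another match with 1 mismatch, 44 bp from the summit. The remaining sites called in every list, 6, 8 and 10, had matches with 1 mismatch.
Site 6, chr6:35722578-35722698: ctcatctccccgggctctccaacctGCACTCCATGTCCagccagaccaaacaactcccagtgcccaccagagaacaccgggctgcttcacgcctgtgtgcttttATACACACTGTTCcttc
Site 8, chr6:35715537-35715657: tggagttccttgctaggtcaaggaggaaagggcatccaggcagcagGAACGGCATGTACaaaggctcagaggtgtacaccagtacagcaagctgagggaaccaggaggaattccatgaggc
Site 10, chr6:35590717-35590837: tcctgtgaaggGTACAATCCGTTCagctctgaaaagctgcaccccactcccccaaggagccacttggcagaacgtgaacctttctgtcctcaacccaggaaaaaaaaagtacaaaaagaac

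Site 6 held 2 such matches, 29 and 50 bp from the summit, that of site 8 was 8 bp from the summit and that of site 10 was 43 bp away. The last set shows site 2, which 3 lists called, and sites 4 and 13, which siHic5/siNS alone called.
Site 2, chr6:35778581-35778701: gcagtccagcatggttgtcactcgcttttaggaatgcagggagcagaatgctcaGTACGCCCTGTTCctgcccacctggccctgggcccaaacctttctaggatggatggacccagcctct
Site 4, chr6:35729862-35729982: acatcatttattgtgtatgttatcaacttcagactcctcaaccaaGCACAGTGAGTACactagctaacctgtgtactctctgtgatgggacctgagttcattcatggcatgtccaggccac
Site 13, chr6:35485002-35485122: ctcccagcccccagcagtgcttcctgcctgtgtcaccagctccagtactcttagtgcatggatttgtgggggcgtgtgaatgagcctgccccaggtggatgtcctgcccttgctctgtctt

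Within 200 bp windows centered on the siHic5/siNS summits, 11 of the 13 FKBP5 sites held a GRE with at most 1 mismatch, and sites 1 and 13 did not. Of all 9533 GBR of that list, 5723 held one, compared with 6.29% of 19066 windows placed 5 kb to either side. A GRE without mismatch was present at 3 of the 13 sites, in 17.6% of all siHic5/siNS GBR, in 54.0% of the 100 strongest and in 0.273% of the side windows. The 3 sites with a perfect GRE were the 3 FKBP5 sites with the highest −log10 p-value in that list. By signal value they were not, because site 6, without a perfect GRE, had 33.8 and site 9 had 22.1. The AP-1 consensus TGANTCA was found at sites 1 and 5, 2 of 13, compared with 24.7% of all GBR of the list, and the ETS consensus CCGGAA or CAGGAA was found at 5 of 13 (sites 2, 7, 8, 10 and 13), compared with 37.0%. At sites 8 and 2 the ETS and GRE matches shared bases. A match describes letters in a window and does not show which protein was bound.

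Site 5 was the strongest GBR of the locus in every list. Its summit lay 0.475 kb downstream of the upstream start, in the first intron of the longest transcript, and varied over 23 bp among the 6 lists. Ranked by −log10 p-value, it was number 5 of 2582 in siNS/siNS, 3 of 9533 in siHic5/siNS, 1 of 1415 in siCHD9/siNS, 1 of 2451 in siCHD9/siHic5, 3 of 1278 in siBRM/siNS and 3 of 3383 in siBRM/siHic5. Its signal value, the enrichment that the peak caller gave, was 23.7, 44.9, 38.1, 33.7, 22.6 and 37.4 in the same order. By −log10 p-value, FKBP5 thus had a GBR among the 5 strongest of each list and the first place in both lists with siCHD9. By signal value, site 5 ranked 37, 17, 2, 4, 9 and 26 in the same order.

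Site 5 consisted of 3 neighboring elements that were separate peaks in 4 of the 6 lists. The first element was described above, the middle one had its own summit 1.61 kb downstream of the start, and the last one had its own summit 2.75 kb downstream. In siHic5/siNS a single peak of 3249 bp covered all 3, and in siBRM/siHic5 a peak of 2286 bp covered the first and the middle, so an element without a summit of its own there was merged into a wider peak and not missing. The middle element was weak, with a signal of 8.46 in siNS/siNS, 6.73 in siCHD9/siNS, 7.95 in siCHD9/siHic5 and 5.23 in siBRM/siNS. The last element had a signal of 18.6 in siNS/siNS, 20.6 in siCHD9/siNS, 13.0 in siCHD9/siHic5, 10.2 in siBRM/siNS and 25.3 in siBRM/siHic5. As a ratio to the first element of the same list, a quantity that needs no scaling between lists, the last element stood at 0.782 in siNS/siNS, 0.542 in siCHD9/siNS, 0.386 in siCHD9/siHic5, 0.450 in siBRM/siNS and 0.677 in siBRM/siHic5. The middle element stood at 0.356, 0.177, 0.236 and 0.231 of the first in siNS/siNS, siCHD9/siNS, siCHD9/siHic5 and siBRM/siNS. Both ratios were highest with control siRNA, and the list with the lowest ratio differed between the middle and the last element. The 121 bases around the middle and last summits of siNS/siNS each held 1 GRE with 1 mismatch.

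**Figure D2:**
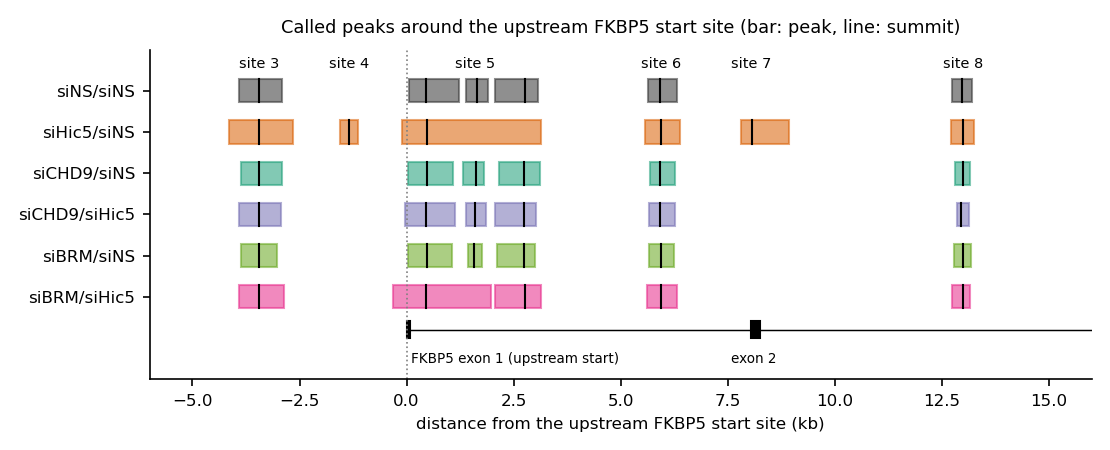
Bars show the extent of each called peak and black lines its summit, by distance in kb from the upstream FKBP5 start site (dotted line), with 1 row per peak list. Sites 3, 5, 6 and 8 are present in all 6 rows, the 3 peaks of site 5 are joined into 1 of 3249 bp in siHic5/siNS, and sites 4 and 7 appear in siHic5/siNS alone.

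A promoter was taken here as the 250 bases before and 50 bases after a start site listed by RefSeq. The promoter of the upstream start, chr6:35728534-35728833 on the minus strand of GRCh38.p14, was overlapped by a peak in all 6 lists. In siNS/siNS, siCHD9/siNS and siBRM/siNS the peak reached only its edge, ending at 35728538, 35728549 and 35728561. In siCHD9/siHic5 and siHic5/siNS the peak ended at 35728617 and 35728701. In siBRM/siHic5 it ended at 35728899 and spanned the whole promoter. The promoter held no GRE match, no AP-1 match and 1 ETS match, whereas the perfect GRE of site 5 lay further into the intron. The promoter of the canonical start, chr6:35688866-35689165, was overlapped by a peak in none of the lists and held no match to any of the 3 motifs. Among 35116 RefSeq promoters of the same length, 8.15% held a GRE with at most 1 mismatch, 7.71% an AP-1 match and 41.4% an ETS match.

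Site 3, 3.46 kb upstream of the gene and in no annotated gene, followed site 5 as the next strongest of the locus in every list by −log10 p-value. Its rank was 14 in siNS/siNS, 17 in siHic5/siNS, 5 in siCHD9/siNS, 18 in siCHD9/siHic5, 20 in siBRM/siNS and 24 in siBRM/siHic5, with signals of 21.5, 39.3, 27.3, 20.7, 12.6 and 27.2. As a share of lists of unequal length, site 3 was in the top 0.178% in siHic5/siNS, 0.353% in siCHD9/siNS and at most 1.56% in the others. Site 6, in the first intron of the longest transcript and 5.95 kb downstream of its start, ranked 64, 94, 58, 93, 47 and 84, with signals of 22.1, 33.8, 20.4, 18.6, 17.2 and 27.3. It remained among the 100 strongest GBR of every list.

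Site 8, in the second intron of the longest transcript and 13.0 kb downstream of its start, was called in all 6 lists but at very unequal strength. Its signal was 15.1 in siNS/siNS, 19.9 in siHic5/siNS, 7.38 in siCHD9/siNS, 5.34 in siCHD9/siHic5, 9.02 in siBRM/siNS and 11.2 in siBRM/siHic5. By −log10 p-value its rank ran from 255 of 2582 in siNS/siNS to 742 of 1415 in siCHD9/siNS and 1753 of 2451 in siCHD9/siHic5. The lists with siCHD9 gave the 2 lowest unscaled signals of this site. Divided by the median of the 881 sites called in all lists, the signal was 1.44 in siNS/siNS, 1.05 in siHic5/siNS, 0.892 in siCHD9/siNS, 0.552 in siCHD9/siHic5, 1.19 in siBRM/siNS and 0.758 in siBRM/siHic5, so that siBRM/siHic5 came below siCHD9/siNS. Relative to site 6 of the same list, the nearest site called in all 6 lists, its signal was 0.683 in siNS/siNS, 0.590 in siHic5/siNS, 0.362 in siCHD9/siNS, 0.287 in siCHD9/siHic5, 0.523 in siBRM/siNS and 0.411 in siBRM/siHic5.

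Sites 9 and 10, the intronic pair in the 3′ part of the gene, were also called throughout. The signal of site 9 was 20.0 in siNS/siNS, 22.1 in siHic5/siNS, 13.1 in siCHD9/siNS, 11.7 in siCHD9/siHic5, 15.6 in siBRM/siNS and 18.7 in siBRM/siHic5, with ranks of 39, 72, 91, 125, 39 and 73. The signal of site 10 was 12.4, 21.9, 6.07, 10.6, 12.2 and 17.1 in the same order, with ranks of 238, 257, 644, 323, 121 and 269. The signal of site 10 was thus lowest in siCHD9/siNS, where it stood in the top 45.5% of the list, compared with the top 2.70% to 13.2% in the others. Its signal was 0.464 of that of site 9 in siCHD9/siNS, and 0.620 to 0.989 of it in the other lists.

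**Figure D3:**
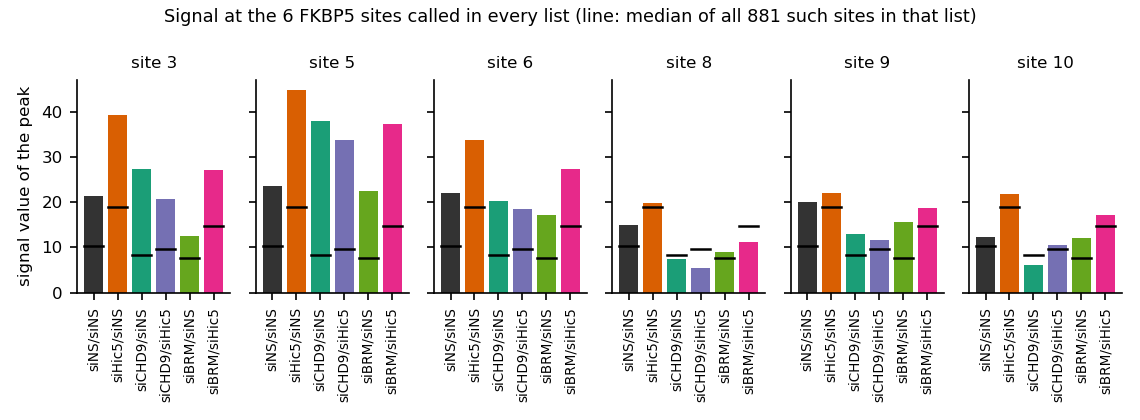
Bars give the signal value of the 6 FKBP5 sites called in every list, 1 panel per site and 1 bar per peak list, from 0, and black lines give the median signal of the 881 GBR called in all 6 lists. Sites 3, 5 and 6 stand above the line in every list, whereas site 8 falls below it in siCHD9/siNS, siCHD9/siHic5 and siBRM/siHic5 and site 10 in siCHD9/siNS.

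To compare lists that differ in depth and background, the signal of each site was divided by the median signal, in that list, of the 881 sites called in all 6 lists. This median was 10.4 in siNS/siNS, 18.9 in siHic5/siNS, 8.27 in siCHD9/siNS, 9.67 in siCHD9/siHic5, 7.58 in siBRM/siNS and 14.8 in siBRM/siHic5. The values below are log2 ratios of these scaled signals, set beside the spread of the 881 sites. That spread is between sites and is not a replicate error, which the pooled lists do not give.

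CHD9 depletion addresses whether this remodeler is needed for GR to occupy its sites. The 6 FKBP5 sites and the 881 reference sites were all chosen as called in every list. The ratios therefore compare strength among sites that stayed called, and cannot show whether a site needs CHD9. In siCHD9/siNS compared with siNS/siNS, the log2 ratio was 1.02 at site 5, above 97.0% of the 881 sites, and 0.68 at site 3, above 88.4%. At sites 6 and 9 it was 0.22 and −0.27. At sites 8 and 10 it was −0.69 each, above 5.79% and 5.90% of the 881 sites, whose SD was 0.49. The strongest FKBP5 sites thus stood relatively higher, and the weaker intronic sites relatively lower, in the list with siCHD9. Unscaled, the ratio ran from 0.49 at sites 8 and 10 to 1.60 at site 5, and its median over the 881 sites was 0.85. In siCHD9/siHic5 compared with siHic5/siNS, site 8 had a log2 ratio of −0.93, above 2.38% of the 881 sites, and site 5 one of 0.55, above 82.2%. The other 4 sites lay between −0.08 and 0.10, with an SD of 0.53 among the 881 sites. With −log10 p-values in place of signal values, a choice made after seeing the data, sites 3, 5 and 6 had 0.64, 0.95 and 0.38, and site 8 had −1.27. Unscaled, the signal was lower in siCHD9/siHic5 than in siHic5/siNS at all 6 sites. The unscaled ratio ran from 0.27 at site 8 to 0.75 at site 5, and its median over the 881 sites was 0.55. Site 8 was thus low in both comparisons with siCHD9, and site 10 in the one with Hic-5 present. These comparisons have different reference lists, and their difference was not tested.

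BRM depletion addresses the same question for the SWI/SNF remodeler, with the same limit to sites that stayed called. In siBRM/siNS compared with siNS/siNS, the log2 ratios were 0.44 at site 10, 0.39 at site 5, 0.11 at site 6, 0.10 at site 9, −0.28 at site 8 and −0.31 at site 3, with an SD of 0.41 among the 881 sites. In siBRM/siHic5 compared with siHic5/siNS, site 8 had −0.48, above 11.8% of the 881 sites, site 3 had −0.18 and the other 4 lay between 0.00 and 0.11, with an SD of 0.47. With −log10 p-values in place of signal values, site 3 turned to 0.39 and site 5 moved to 0.57. Unscaled, the signal was lower than in the reference list at all 6 sites in both comparisons. In siBRM/siNS the unscaled ratio ran from 0.59 at site 3 to 0.98 at site 10, with a median of 0.75 over the 881 sites. In siBRM/siHic5 it ran from 0.56 at site 8 to 0.85 at site 9, with a median of 0.81. Site 8 was thus the lowest of the 6 sites in both comparisons with siHic5/siNS as reference, and in siBRM/siHic5 it remained above the 5th percentile of the 881 sites.

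Hic-5 depletion addresses whether Hic-5 limits GR occupancy, here only at sites that were also called with control siRNA. In siHic5/siNS compared with siNS/siNS, the unscaled signal was higher at all 6 sites, by a ratio of 1.11 at site 9 to 1.89 at site 5, while the median ratio of the 881 sites was 1.77. Once scaled, the log2 ratio was 0.06 at site 5, 0.01 at site 3, −0.04 at site 10, −0.24 at site 6, −0.45 at site 8 and −0.71 at site 9, which was above 9.65% of the 881 sites (SD 0.53). The gain at the FKBP5 sites thus did not exceed that of common GBR by more than 0.06. With −log10 p-values in place of signal values, the scaled log2 ratios of sites 3 and 5 moved to −0.63 and −0.70.

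**Figure D4:**
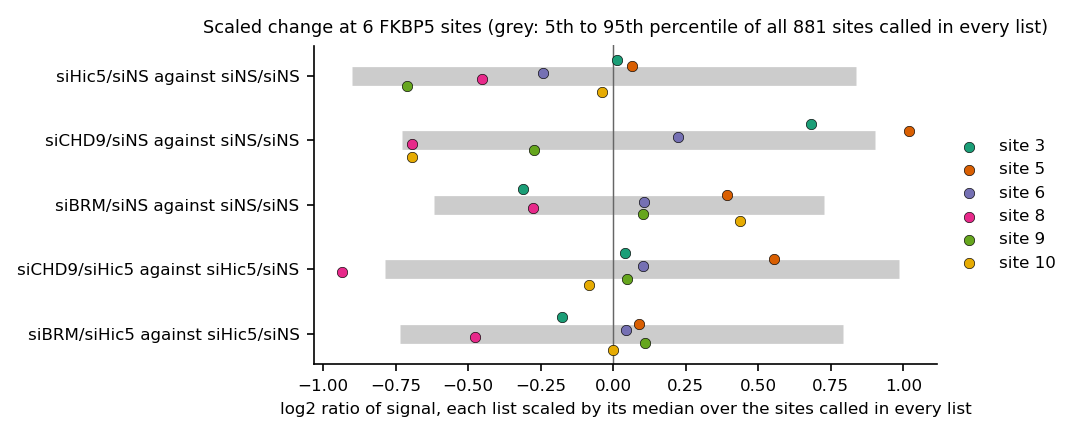
Points give the log2 ratio of scaled signal at the 6 FKBP5 sites called in every list for 5 comparisons of peak lists, and grey bars span the 5th to 95th percentile of all 881 sites called in every list. Site 5 lies above the bar in siCHD9/siNS against siNS/siNS at 1.02, site 8 lies beneath it in siCHD9/siHic5 against siHic5/siNS at −0.93, and the other points fall within the bars.

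The remaining 7 sites were not shared by all lists. In siHic5/siNS, which called them all, their signals were below 19.9, the lowest among FKBP5 sites called in every list. The signals of sites 2, 4 and 7 were above the median of that list, 7.41, and those of sites 1, 11, 12 and 13 were below it. Site 2 had a signal of 5.40 in siNS/siNS (rank 2051), 11.9 in siHic5/siNS (rank 2410) and 7.22 in siBRM/siHic5 (rank 2816). It was absent from siBRM/siNS and from both lists with siCHD9. Its −log10 q-value of 11.3 in siNS/siNS was above the lowest value listed in any of those 3. Such values depend on the depth of each list and are not on a common scale. At the sites called in every list, the median −log10 p-value of the peak caller was 41.7 in siNS/siNS. This median was 24.7 in siCHD9/siNS, 39.4 in siCHD9/siHic5 and 23.5 in siBRM/siNS. Whether the calling threshold accounts for the absence of site 2 was not tested. Site 1 was called in siHic5/siNS with a signal of 6.67 and in siBRM/siHic5 with 4.93, where it ranked 3341 of 3383. Site 1 was thus near the weak end of siBRM/siHic5. Site 2 ranked 2196 there by signal value, and its signal was below the median of that list, 8.20.

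Sites 4, 7, 11, 12 and 13 were called in siHic5/siNS and in no other list. Site 4, 1.34 kb upstream of the start, had a signal of 8.71 and ranked 3060 of 9533. Site 7, with its summit in the second exon of the longest transcript, had 9.56 and ranked 2800. Both lay between strong FKBP5 sites, and the 3 sites in TEAD3 were weaker. Site 11, 0.458 kb from the TEAD3 start, had a signal of 4.89, site 12 had 6.74 and site 13 had 4.95, with ranks of 8596, 5450 and 8954.

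Against the whole list, 5 of the 13 siHic5/siNS GBR at FKBP5 were in no other list, compared with 58.7% of all siHic5/siNS GBR, and 6 of 13 were in all 5 other lists, compared with 9.25%. The 95% Wilson interval of 6 of 13 ran from 23.2% to 70.9% and covers counting error only. In siNS/siNS 7 of 13 were also called (26.0% of all siHic5/siNS GBR), in siCHD9/siNS 6 (14.5%), in siCHD9/siHic5 6 (24.6%), in siBRM/siNS 6 (13.1%) and in siBRM/siHic5 8 (34.6%). The 13 GBR share a locus and do not count as independent draws from the list. Among the siHic5/siNS GBR within the first 1000 places by −log10 p-value (1003 with ties), 67.5% were in all 5 other lists, compared with 6 of 6 at FKBP5. How far the strength of the sites sets the shares over the whole list was not tested.

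Starting from the control list, all 9 siNS/siNS GBR at FKBP5 overlapped a siHic5/siNS GBR, compared with 96.8% of that list. In both lists with siCHD9 8 of 9 were called, compared with 48.6% of siNS/siNS GBR in siCHD9/siNS and 65.8% in siCHD9/siHic5. In siBRM/siNS 8 of 9 were called (47.8%), and in siBRM/siHic5 9 of 9 (83.4%). All 5 other lists called 8 of 9, compared with 34.6% of siNS/siNS GBR, and the exception in each of the 3 incomplete lists was site 2. The 9 GBR include the 3 elements of site 5 and had a median place in the top 2.63% of siNS/siNS. Whether their shares differ from those of GBR of like strength was not tested.

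The number of GBR per gene sets FKBP5 among other genes. The window was the gene body and 100 kb to either side, 355 kb at FKBP5, and so grew with gene length. FKBP5 had 9 GBR in siNS/siNS, 13 in siHic5/siNS, 8 in siCHD9/siNS, 8 in siCHD9/siHic5, 8 in siBRM/siNS and 9 in siBRM/siHic5. These are peaks, of which site 5 gave up to 3, and the sites numbered 7, 13, 6, 6, 6 and 8. The median of 20020 protein-coding genes was 1 GBR in siHic5/siNS and 0 in each other list. As many or more GBR were found at 1, 23, 1, 4, 0 and 6 other genes in the same order. The count at FKBP5 was therefore matched by 1 gene with control siRNA and by more genes in the 3 lists with siHic5. Of the 100 strongest GBR, FKBP5 held 5, 4, 5, 3, 4 and 5. The counts of 5 include the last element of site 5, which was no separate peak in siHic5/siNS. In siNS/siNS, siCHD9/siNS, siBRM/siNS and siBRM/siHic5 no gene with a separate window held as many as FKBP5. In siHic5/siNS 2 such genes, NNMT and ZBTB16, held at least as many. They are neighbors on chr11 with overlapping windows. In siCHD9/siHic5 15 did, namely these 2, NFATC2, BBS2 and metallothionein genes. Their windows were separate from that of FKBP5 and not all from each other, so they are not 15 loci.

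**Figure D5:**
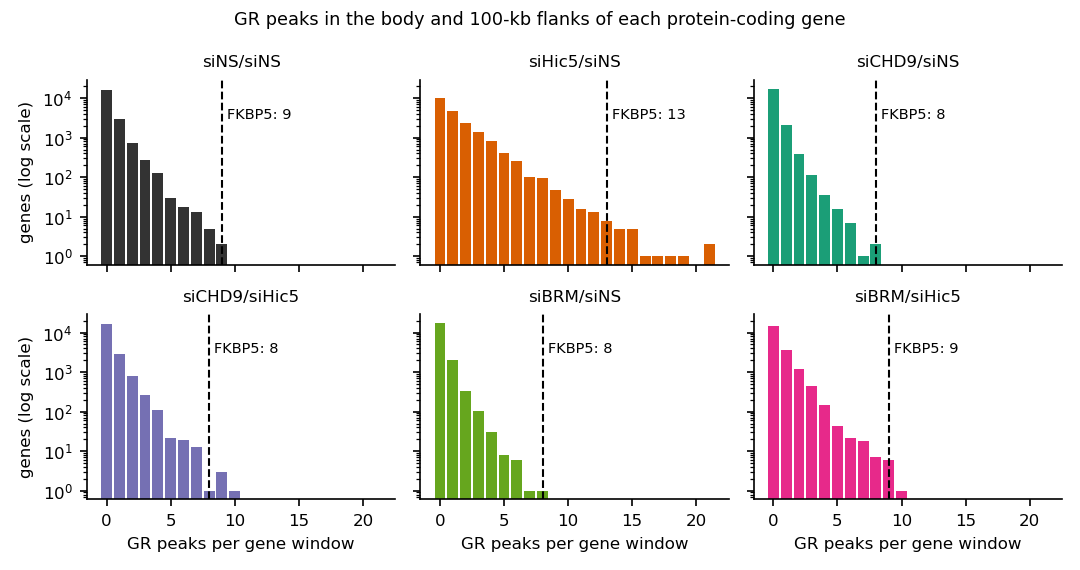
Bars give the number of protein-coding genes (log scale) by how many GBR their body and 100 kb flanks held, 1 panel per peak list, with a dashed line at FKBP5. FKBP5 lies at or near the right end in 5 panels, with 8 or 9 GBR, and inside the tail in siHic5/siNS, where it had 13 and the highest gene 21.

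By the distance between the log2 counts over the 6 lists, with 1 added, the genes most like FKBP5 were ZBTB16, RPTOR and PTPN1, at 0.34, 1.77 and 1.94. ZBTB16, a zinc finger transcription factor known as a glucocorticoid target, had 9, 13, 8, 7, 7 and 9 GBR. RPTOR, the scaffold subunit of mTORC1, had 8, 10, 7, 6, 5 and 8, and PTPN1, a protein tyrosine phosphatase, had 8, 15, 5, 10, 5 and 10. The likeness rests on 6 counts per gene and on windows of unequal length.

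Other genes of the chaperone complex that holds unliganded GR were examined with the same window. Of 13 genes (GR itself, NR3C1, then HSP90AA1, HSP90AB1, HSPA8, STIP1, PTGES3, CDC37, AHSA1, PPP5C, FKBP4, PPID, BAG1 and DNAJB1), those with at least 1 GBR in their window numbered 2 in siNS/siNS, 9 in siHic5/siNS, 1 in siCHD9/siNS, 2 in siCHD9/siHic5, 1 in siBRM/siNS and 4 in siBRM/siHic5. Among all protein-coding genes the share was 21.0%, 50.7%, 13.0%, 20.3%, 12.3% and 27.1% in the same order, compared with 15.4%, 69.2%, 7.69%, 15.4%, 7.69% and 30.8% of these 13 genes. FKBP4, which encodes FKBP52, the co-chaperone that opposes FKBP51 at the receptor, had 1 GBR in siHic5/siNS alone, at rank 4056 and 50.6 kb from its start. NR3C1 likewise had 1 GBR, in siHic5/siNS alone, at rank 8729 and outside the gene body.

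The window of PPP5C, which encodes a phosphatase of the same complex, held the exception in strength. A GBR at chr19:46300647-46301458 lay 46.0 kb from the PPP5C start and outside the gene body. It ranked 1 in siNS/siNS, 5 in siHic5/siNS, 34 in siCHD9/siNS, 14 in siCHD9/siHic5, 2 in siBRM/siNS and 1 in siBRM/siHic5. Its signal was 47.3 in siNS/siNS and 14.4 in siCHD9/siNS, the opposite order to site 5 of FKBP5, which had 23.7 and 38.1. Other genes near this GBR were not examined, and which gene it acts on was not tested. DNAJB1, an HSP40 co-chaperone, was the other gene of the group with a GBR in siNS/siNS, at rank 1605. HSP90AA1, STIP1, CDC37 and AHSA1 had no GBR in any of the 6 lists.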

How the data were processed

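GR ChIP-seq of U2OS-GRα cells comprised 12 ChIP libraries and 6 inputs, mapped to 6 siRNA combinations from their labels. Per the labels and methods, the authors mapped reads to GRCh38/hg38 with BWA, called peaks with MACS2 on pooled replicates and kept peaks passing IDR. Versions are not given in the sources used here. The deposited lists hold a signal value (enrichment by MACS2, whose scale the sources describe both as fold and as CPM), the authors' −log10 p-value and −log10 q-value, and a display score that was not used. Read depth is unknown from the lists and acts on which weak peaks were called and on −log10 p-values.

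Members were summits in FKBP5 (GENCODE release 44) or its 100 kb flanks. Peaks were joined by overlap of at least 1 bp, ranked within each list by −log10 p-value, and scaled by the 881 sites called in all lists. Motifs were matched as consensus letters. The members and gene lists were chosen with earlier results of these data known, and the genes most like FKBP5 were taken as the 3 smallest distances over protein-coding genes without an overlapping window. No test was made, because each combination is 1 pooled list. Clustering, overlap and motif search were tested on simulated data. Alternatives were other flanks, overlap rules, thresholds, ranks and windows. Computations used Python 3.11.15, NumPy 2.4.6, pandas 2.3.3, SciPy 1.17.1, pysam 0.24.0, samtools 1.23.1 and Matplotlib 3.10.9.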

Additional observations from a re-analysis of the deposited data

How the results depend on the processing

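Of 102 alternative values of the main results, 88 stayed within 1.5 times the value reported (counts) or within its 95% interval (places in a list) and 14 did not. For a place this interval is a yardstick only and measures no spread between replicates. It was wide for the first places, so that a move from the top 0.0707% to the top 0.141% in siCHD9/siNS stayed within it. With a flank of 50 kb, siHic5/siNS had 8 GBR at FKBP5, and in the 1000 strongest GBR of each list it had 6, at 6 sites, which were all the sites then found. With a −log10 q-value of at least 20, siCHD9/siNS had 5. The sites called in all 6 lists then numbered 4 in place of 6, and 5 with a common threshold for all lists. Both counts stayed within 1.5 times, but the number depends on the threshold of each list. The place of the strongest FKBP5 GBR, by signal value in place of −log10 p-value, was the top 1.43% in siNS/siNS, 0.178% in siHic5/siNS, 0.704% in siBRM/siNS and 0.769% in siBRM/siHic5. Among the 881 GBR called in all lists it was the top 0.568% in siNS/siNS and 0.341% in both siHic5/siNS and siBRM/siHic5. Without a mismatch, 3 sites held a GRE. With a flank of 200 kb, 2 chaperone complex genes had a GBR in siCHD9/siNS. These alternatives differ from the main analysis in construction (fewer GBR, another order or a shorter reference set, a wider window). How far that accounts for each move was not tested. The place of the strongest FKBP5 GBR depended on the measure of strength, and in siNS/siNS it was the top 0.194% by −log10 p-value. Of 42 values for single sites, 26 stayed within bounds of this kind, with scaled log2 ratios judged against 1 SD of the 881 sites. Of the 16 that did not, 11 were places of site 8, which ranged from the top 28.4% in siNS/siNS to the top 96.6% in siCHD9/siHic5 among the 881 GBR called in all lists (56.2% in siHic5/siNS and 75.3% in siBRM/siHic5), and 5 were scaled log2 ratios of sites 3 and 5 by −log10 p-value, in the 3 comparisons that include siHic5/siNS. No paired analysis was possible because the 2 replicates of each combination were pooled into 1 list, and leaving out a replicate was not possible for the same reason. Depth and the calling threshold limit what can be said of sites 1, 2, 4, 7 and 11 to 13, whose absence from a list says that they were not called and not that GR was absent.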
